A study of Mus musculus with 2 samples.

Results

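The matrix metalloproteinases (MMP), the ADAMTS enzymes, the ADAMTS-like proteins (ADAMTSL) and the tissue inhibitors of metalloproteinases (TIMP) were measured in heart RNA of old female mice. A gene was taken when its symbol started with Mmp, Adamts, Adamtsl or Timp followed by a digit and at least 1 of its transcripts was annotated as protein-coding. This gave 51 genes of the 21901 with a protein-coding transcript and of 55536 Ensembl genes in all. They were 4 TIMP, 23 MMP, 19 ADAMTS and 5 ADAMTSL genes.

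The study holds 1 group. Its hearts came from female mice of the hybrid strain B6CASTF1/J at an age of 18 to 20 months, with no treatment or added allele given in the labels. Total RNA of 300 ng per library was used, ribosomal RNA was reduced, and ERCC spike-ins, synthetic RNAs of known amount, were added. The labels call the 2 libraries biological replicates 2 and 1 and give them separate biosample entries but the same donor entry, so it is not settled whether they are separate animals, and the spread between them may be partly technical. With 1 group there is no contrast to test, and the ratio of replicate 2 to replicate 1 describes these libraries only. Expected counts, the authors' estimate of reads per gene, totalled 36926429 in replicate 2 and 35897521 in replicate 1. Levels are in TPM, a relative number of transcripts that is scaled by transcript length, so they can be compared between genes. Unless stated otherwise they come from the authors' gene table in the column layout of RSEM, and a second deposited table in the column layout of kallisto was used as a check.

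MMPs are zinc proteases, secreted or held at the cell surface, that cut collagens and other matrix proteins after their propeptide is removed. ADAMTS enzymes are secreted relatives that trim proteoglycans, procollagens and plasma proteins, while ADAMTSL proteins share their binding domains but lack the protease domain and sit in fibrillin microfibrils. TIMPs bind the active site of MMPs, and TIMP3 also inhibits aggrecan-cleaving ADAMTS enzymes. In the heart the balance of proteases and inhibitors is studied for its part in the turnover of the collagen network between cardiomyocytes.

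Cardiomyocyte markers were high in both libraries, as the heart label says. The 5 markers, with Myh6, Tnnt2 and Actc1 as the defining ones, together had 26002 TPM in replicate 2 and 26789 in replicate 1. Markers of other cell types differed between the libraries. The 5 adipocyte markers summed to 277 TPM in replicate 2 and 25.4 in replicate 1, the 5 airway epithelium markers to 253 and 0.54 TPM, and the 5 lymphocyte markers to 12.5 and 2.09 TPM, in the same order of libraries. The adipocyte marker Adipoq had 25.1 TPM in replicate 2 and 2.28 in replicate 1, and Plin1 and Cidec were likewise higher. The airway markers Scgb1a1, Scgb3a2 and Bpifa1 were at 0 counts in replicate 1. The 5 erythrocyte markers were lower in replicate 2, with 7567 TPM against 16071 TPM in replicate 1. Fibroblast markers summed to 198 TPM in replicate 2 and 181 in replicate 1, endothelial markers to 131 and 155 TPM, smooth muscle and pericyte markers to 133 and 145 TPM, macrophage markers to 43.7 and 38.2 TPM, mesothelium markers to 26.1 and 17.0 TPM, chondrocyte markers to 2.85 and 1.96 TPM and neutrophil markers to 0.16 and 4.07 TPM. In bulk tissue, fewer cells of a type and less RNA per cell cannot be told apart.

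All 4 TIMP genes, 6 of 23 MMP genes, 8 of 19 ADAMTS genes and 4 of 5 ADAMTSL genes reached 1 TPM in both libraries. Together these were 22 of 51 members (43.1%), against a background of 50.2% of the 21901 genes with a protein-coding transcript. The median TPM of these 22 members was 3.80 in replicate 2 and 3.54 in replicate 1, against 9.05 and 8.80 TPM over all genes that passed the same threshold, so most of the detected members were among the lower of the detected genes. A mean of 1 TPM or more over both libraries was reached by 24 members. The lowest of them was Adamts6 with a mean of 1.16 TPM, and the next below was Adamtsl1 with 0.93 TPM. At 0 counts in both libraries were 6 members (11.8%), against a background of 23.5% of genes, and all 6 were MMP genes.

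**Figure D1:**
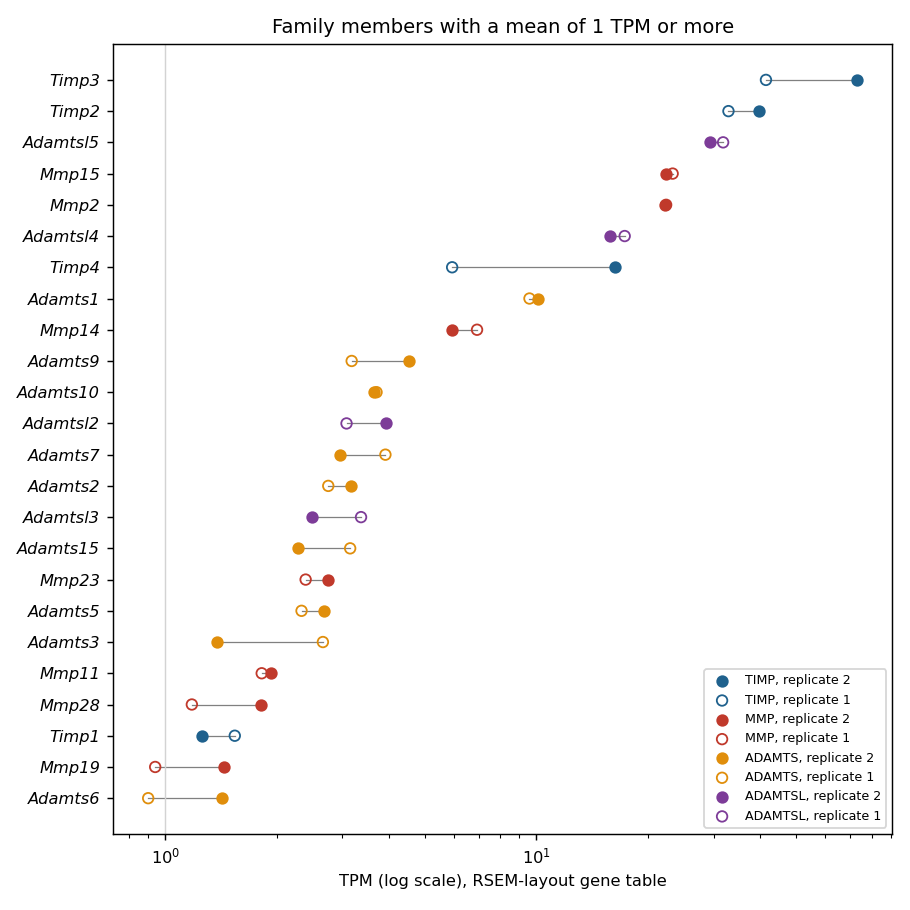
TPM (log scale) of the 24 genes with a mean of 1 TPM or more, from the RSEM-layout gene table; filled points are replicate 2, open points replicate 1, lines join the libraries of a gene and colours mark the families. Timp3 is at the top with 73.0 TPM in replicate 2 and 41.5 in replicate 1, and the gap between the points is widest for Timp4.

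The TIMP genes held the highest level of the whole set. Timp3, whose protein binds to the matrix and inhibits MMPs, the aggrecan-cleaving ADAMTS enzymes and the sheddase ADAM17, had 73.0 TPM in replicate 2 and 41.5 in replicate 1 (9595 and 5199 expected counts). It ranked 789th in replicate 2 and 1411th in replicate 1 among the genes with a protein-coding transcript. The authors' credibility bounds of its TPM were 69.9 to 73.8 in replicate 2 and 39.5 to 42.5 in replicate 1, so they did not overlap. These bounds are set within each library and hold no spread between samples. Over all genes, too, the libraries differed by more than sampling noise. Timp3 lies at chr10:86300372-86349506 on the plus strand of mm10, inside the synapsin gene Syn3, which runs on the opposite strand. The pair shares 1733 exonic bases, 21.3% of the exonic bases of Timp3, and the strand setting of the counting is not given in the sources used here. Syn3 itself had 0.17 TPM in replicate 2 and 0.09 in replicate 1.

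Timp2, an inhibitor that also bridges membrane-bound MMP14 and the proform of MMP2 during activation, had 39.7 TPM in replicate 2 and 32.9 in replicate 1 (3121 and 2333 expected counts). It lies at chr11:118301069-118355740 on the minus strand. Timp2 was the only member with a mean of 1 TPM or more whose level depended on the table by over 1.5 times, where 15.3% of 12504 genes did. In the kallisto-layout table it had 65.7 TPM in replicate 2 and 49.95 in replicate 1, a mean 1.59 times that of the RSEM-layout table.

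Timp4, the inhibitor long described as enriched in heart, had 16.3 TPM in replicate 2 and 5.93 in replicate 1 (1673 and 580 expected counts). It lies at chr6:115241892-115252205 on the minus strand, inside Syn2 on the opposite strand, with 90 exonic bases shared, and Syn2 had 1.71 TPM in replicate 2 and 1.47 in replicate 1. The level of Timp4 in replicate 1 was below that of Adamts1 and Mmp14, whereas in replicate 2 it was above both. Timp1, an inhibitor known to be induced in inflamed and fibrotic tissue, was the lowest of the 4 with 1.26 TPM in replicate 2 and 1.54 in replicate 1 (29 and 32 expected counts). Timp1 lies at chrX:20870166-20874735 on the plus strand within Syn1, with no exonic base in common.

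The DNA before the transcription start is shown for the TIMP genes because their levels ranged from Timp3 at the top to Timp1 near the threshold. The stretches are 150 bases each, taken from RefSeq promoter windows on GRCm38.p6 (the same assembly as mm10), from the last bases before the start that no annotated exon of the gene covers. They are reference bases, and whether both alleles of the hybrid B6CASTF1/J mice carry them was not tested. They are given 5′ to 3′ on the strand of the gene, and capitals mark a GC box (GGGCGG, read on both strands), a TATA motif (TATAAA) or an AP-1 motif (TGACTCA). Timp4 is chr6:115252206-115252355 on the minus strand, Timp3 is chr10:86300222-86300371 on the plus strand and Timp1 is chrX:20870016-20870165 on the plus strand. For Timp2 no stretch of that length without an annotated exon was in the window, and none is shown.
Timp4: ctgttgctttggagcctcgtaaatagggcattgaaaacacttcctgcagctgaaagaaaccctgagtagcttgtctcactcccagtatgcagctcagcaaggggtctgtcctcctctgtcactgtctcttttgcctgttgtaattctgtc
Timp3: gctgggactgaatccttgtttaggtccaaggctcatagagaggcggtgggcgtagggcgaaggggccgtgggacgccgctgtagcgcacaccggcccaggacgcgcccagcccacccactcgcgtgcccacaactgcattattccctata
Timp1: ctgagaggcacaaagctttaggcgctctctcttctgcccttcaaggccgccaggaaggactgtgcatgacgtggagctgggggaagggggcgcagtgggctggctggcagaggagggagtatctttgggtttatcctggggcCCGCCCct
The 150 bases of Timp3 held 12 CpG dinucleotides, those of Timp1 held 5 and those of Timp4 held 1. The Timp4 and Timp3 stretches had none of the 3 motifs. The Timp3 stretch ends 40 bases before the RefSeq start, however. In the full 250 bases before that start, Timp3 had 1 GC box and 18 CpG, and Timp2 1 GC box and 21 CpG. Timp1 had 1 GC box and 6 CpG, and Timp4 no GC box and 2 CpG.

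Among the MMP genes, most of the summed TPM came from Mmp15, Mmp2 and Mmp14. Mmp15, a membrane-type MMP (MT2-MMP), had 22.3 TPM in replicate 2 and 23.3 in replicate 1 and lies at chr8:95352268-95375080 on the plus strand. Mmp2, gelatinase A, which cuts denatured and basement membrane collagens, had 22.2 TPM in replicate 2 and 22.4 in replicate 1 and lies at chr8:92827291-92853420 on the plus strand. Their neighbouring levels did not differ beyond the spread of the libraries. Mmp14, the membrane-type MMP (MT1-MMP) known to activate the proform of MMP2, had 5.94 TPM in replicate 2 and 6.92 in replicate 1 and lies at chr14:54431612-54445364 on the plus strand. Mmp15 and Mmp2 made up 37.0% and 36.9% of the summed MMP level in replicate 2, against 38.4% and 36.9% in replicate 1. The short coding transcript Mmp2-203, of 674 nt, held 35.2% of Mmp2 in replicate 2 and 37.3% in replicate 1. It had 132 and 134 expected counts in the same order. The longer Mmp2-201 had 14.4 TPM in replicate 2 and 14.0 in replicate 1, against 22.2 and 22.9 TPM for Mmp15-201. The near-equal levels of Mmp15 and Mmp2 thus include this short transcript.

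The other 4 MMP genes with a mean of 1 TPM or more were low. Mmp23, a membrane-anchored MMP, had 2.74 TPM in replicate 2 and 2.39 in replicate 1. Mmp11, stromelysin 3, had 1.93 and 1.82 TPM, in the same order of libraries. Its exons share 155 bases with Chchd10 on the opposite strand, a mitochondrial protein gene with 771 TPM in replicate 2 and 809 in replicate 1, and how far reads of Chchd10 enter the Mmp11 counts was not tested. Mmp28, epilysin, had 1.81 TPM in replicate 2 and 1.18 in replicate 1. Mmp19 had 1.44 TPM in replicate 2 and 0.94 in replicate 1, and 789 of its exonic bases (22.3%) are shared with Tmem198b on the opposite strand, which had 2.17 TPM in replicate 2 and 1.35 in replicate 1.

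By class, the gelatinases Mmp2 and Mmp9 together had 22.9 TPM in both libraries, of which Mmp9, gelatinase B, known from neutrophils and macrophages, had 0.63 TPM in replicate 2 and 0.54 in replicate 1. In the kallisto-layout table Mmp9 had 1.21 TPM in replicate 2 and 1.29 in replicate 1, a mean 2.14 times as high. The neutrophil markers S100a8, S100a9 and Ly6g were at 0, 2 and 0 expected counts in replicate 2 and at 16, 27 and 0 in replicate 1. The 4 transmembrane membrane-type MMPs (Mmp14, Mmp15, Mmp16, Mmp24) summed to 28.8 TPM in replicate 2 and 30.4 in replicate 1, and the GPI-anchored Mmp17 and Mmp25 to 0.38 TPM in each. The classical collagenases (Mmp1a, Mmp1b, Mmp8, Mmp13), which cut intact fibrillar collagen, summed to 0.04 TPM in replicate 2 and 0.03 in replicate 1.

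The low MMP genes were grouped by position. On chromosome 9, 10 MMP genes (Mmp13, Mmp12, Mmp1b, Mmp3, Mmp1a, Mmp10, Mmp8, Mmp27, Mmp20 and Mmp7) lie between positions 7272514 and 7699585, a span of 427072 bases. Together they held 21 expected counts in replicate 2 and 24 in replicate 1, or 0.39 and 0.51 TPM, and 5 of them were at 0 counts in both libraries. The highest of the 10 was Mmp3, stromelysin 1, with 0.24 TPM in replicate 2 and 0.25 in replicate 1 (12 counts in each). The 13 MMP genes elsewhere summed to 59.9 TPM in replicate 2 and 60.0 in replicate 1, and 7 of them had a mean of 1 TPM or more. Mmp10, Mmp1a, Mmp1b, Mmp20, Mmp7 and, outside the cluster, Mmp21 were the 6 members without counts. Where a count of 0 allows up to 3 counts, their TPM could be up to 0.0320 to 0.111, depending on gene length and library, so low levels below that were not detectable at this depth.

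The promoter stretches of a pair of expressed membrane-type MMP genes and of a pair of cluster genes are shown for comparison, cut and marked as above. Mmp15 is chr8:95352118-95352267, Mmp14 is chr14:54431448-54431597, Mmp3 is chr9:7445672-7445821 and Mmp13 is chr9:7272364-7272513, all on the plus strand.
Mmp15: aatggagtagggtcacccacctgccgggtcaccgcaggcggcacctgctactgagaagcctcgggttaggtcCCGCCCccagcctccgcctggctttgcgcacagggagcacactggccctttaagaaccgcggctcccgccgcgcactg
Mmp14: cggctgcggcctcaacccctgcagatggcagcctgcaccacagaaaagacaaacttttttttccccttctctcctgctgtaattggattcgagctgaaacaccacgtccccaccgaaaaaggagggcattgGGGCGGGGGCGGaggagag
Mmp3: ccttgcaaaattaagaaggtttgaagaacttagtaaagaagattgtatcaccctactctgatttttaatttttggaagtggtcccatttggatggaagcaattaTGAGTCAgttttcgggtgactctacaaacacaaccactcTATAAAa
Mmp13: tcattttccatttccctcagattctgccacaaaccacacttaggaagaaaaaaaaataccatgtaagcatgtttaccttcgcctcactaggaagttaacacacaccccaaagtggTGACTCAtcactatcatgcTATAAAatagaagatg
Mmp15 and Mmp14 had 12 and 7 CpG dinucleotides and GC boxes, 2 of them side by side before Mmp14. Mmp3 and Mmp13 had 1 CpG each, with an AP-1 motif upstream of a TATA motif.

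Over the full 250 bases before the RefSeq start, 35 of the 51 members had a window that could be used. The 17 members with a mean of 1 TPM or more had a median of 15 CpG dinucleotides (range 2 to 39) and the 18 lower ones a median of 1.5 (range 0 to 35), against 6 over all 32851 windows. All windows take in genes at any level. No background of other genes with a mean of 1 TPM or more was computed. Whether the shares of the 17 are particular to these members was therefore not tested. A GC box (GGGCGG, both strands) was in 15 of the 17 (88.2%) and in 5 of the 18 (27.8%), against 32.7% of all windows. A TATAAA match, either strand, was in 2 of the 17 (11.8%) and in 8 of the 18 (44.4%), against 12.4% of all windows. The AP-1 motif TGACTCA, either strand, was in none of the 17 and in 7 of the 18 (38.9%), against 4.46% of all windows. All 7 with the AP-1 motif and 7 of the 8 lower members with TATAAA were in the chromosome 9 cluster, whose genes are related by duplication and so are not independent points, and no cluster window held a GC box. The 10 cluster windows had a median of 1 CpG (range 0 to 4). Lower members outside the cluster had 35 (Adamts14), 33 (Mmp24), 32 (Adamts20), 17 (Mmp25), 15 (Adamts18) and 6 CpG (Adamts12). Adamts13 and Mmp21 had 1 CpG each. The low median of the lower members thus rested on the cluster. CpG count did not order the members by level. Timp4, at a mean of 11.1 TPM, had 2 CpG and no GC box, and Mmp24, at 0.02 TPM in replicate 2 and 0.01 in replicate 1, had 33 CpG. A match describes these letters only and is not a shown binding site.

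**Figure D2:**
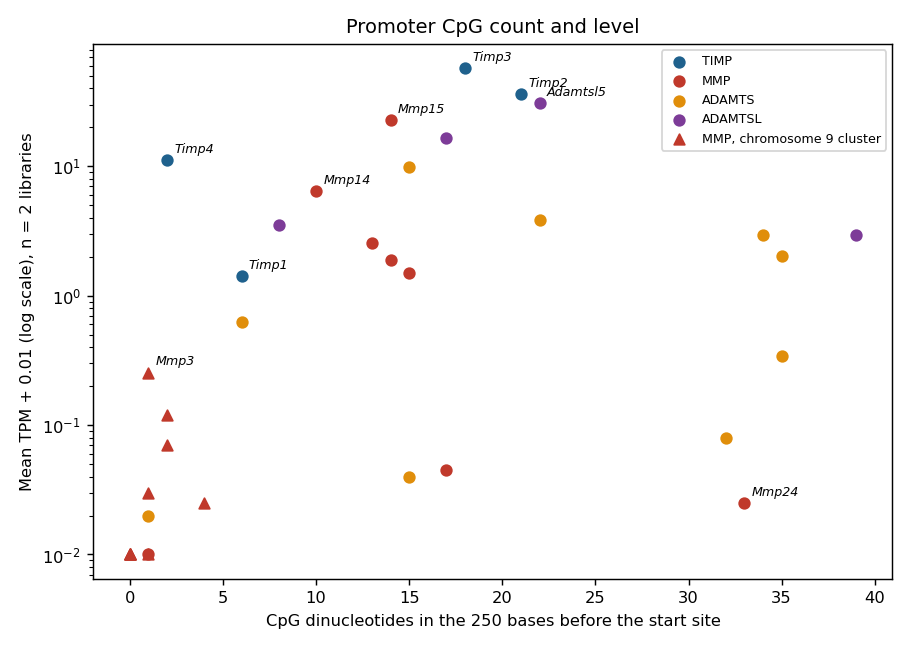
CpG dinucleotides in the 250 bases before the RefSeq start (horizontal) against mean TPM + 0.01 of both libraries (vertical, log scale), 1 point per gene for the 35 members with a window; colours mark the families and triangles the chromosome 9 MMP cluster. The cluster genes sit at the lower left with 0 to 4 CpG, Timp4 stands above them with 2 CpG, and Mmp24 is at the lower right with 33 CpG.

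Of the 19 ADAMTS genes, 9 had a mean of 1 TPM or more, and Adamts1 led them. Adamts1, a protease of versican and aggrecan, had 10.1 TPM in replicate 2 and 9.58 in replicate 1 and lies at chr16:85793827-85803113 on the minus strand. Next to it on chromosome 16 lies Adamts5, the main aggrecan-cleaving enzyme of mouse cartilage, with 2.68 TPM in replicate 2 and 2.33 in replicate 1. Adamts9, another versican-cleaving enzyme, had 4.53 TPM in replicate 2 and 3.18 in replicate 1, and Adamts15 had 2.28 and 3.15 TPM in the same order. The 7 proteoglycan-cleaving enzymes, with Adamts4, Adamts8 and Adamts20 below 1 TPM in the mean, summed to 20.98 TPM in replicate 2 and 19.2 in replicate 1, most of the ADAMTS total.

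The enzymes that remove the amino-terminal propeptide of procollagens include Adamts2, Adamts3 and Adamts14. Adamts2 had 3.17 TPM in replicate 2 and 2.75 in replicate 1. Adamts3, which also takes part in activating the lymphatic growth factor VEGFC, had 1.38 TPM in replicate 2 and 2.66 in replicate 1. With Adamts14 the 3 genes summed to 4.95 TPM in replicate 2 and 5.68 in replicate 1. Adamts7, a protease of cartilage oligomeric matrix protein, had 2.95 TPM in replicate 2 and 3.92 in replicate 1. Its exons share 122 bases with Tbc1d2b on the opposite strand. Adamts10, which binds fibrillin, had 3.65 TPM in replicate 2 and 3.71 in replicate 1, and Adamts6 had 1.42 and 0.90 TPM in the same order. Adamts13, the von Willebrand factor protease known from liver, had 2 expected counts in replicate 2 and 0 in replicate 1, while its substrate gene Vwf had 40.3 TPM in replicate 2 and 44.7 in replicate 1.

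The ADAMTSL genes together were above the ADAMTS enzymes. Adamtsl5, whose protein binds fibrillin, had 29.4 TPM in replicate 2 and 31.8 in replicate 1 (1720 and 1870 expected counts) and lies at chr10:80339110-80348412 on the minus strand. Adamtsl4, in which variants in humans displace the eye lens, had 15.8 TPM in replicate 2 and 17.3 in replicate 1 and lies at chr3:95676201-95687917 on the minus strand. Adamtsl2, a partner of the latent TGF-beta binding protein LTBP1, had 3.94 TPM in replicate 2 and 3.08 in replicate 1. Adamtsl3 had 2.49 TPM in replicate 2 and 3.37 in replicate 1. The sum of the 5 genes was 52.8 TPM in replicate 2 and 56.3 in replicate 1, which is 1.48 and 1.64 times the ADAMTS sum.

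The remaining 27 members had means under 1 TPM, of which 6 had no counts. Means of 0.245 to 0.93 TPM were found for 11 genes, Adamtsl1, Adamts8, Adamts12, Mmp9, Adamts17, Mmp16, Mmp17, Adamts14, Adamts4, Adamts19 and Mmp3. Means of 0.01 to 0.11 TPM, with at most 12 counts in a library, were found for 10 genes, Mmp12, Adamts20, Mmp27, Mmp25, Adamts18, Mmp13, Mmp24, Mmp8, Adamts13 and Adamts16. Of these 21, Mmp9, Mmp12, Mmp25, Adamts18, Mmp13, Mmp8 and Adamts16 differed over 1.5 times between the tables.

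Ordered by mean TPM in the RSEM-layout table, 7 of the 23 neighbouring pairs among the 24 genes differed beyond the spread, taken as a mean log2 difference of the same sign in both libraries that exceeded the gap between the libraries. These were Timp3 over Timp2, Adamtsl5 over Mmp15, Mmp2 over Adamtsl4, Adamts1 over Mmp14, Mmp14 over Adamts9, Adamtsl3 over Adamts15 and Mmp23 over Adamts5. This rule uses the TPM values alone and leaves out counting error and the kallisto-layout table. Passing it does not by itself settle an order. Mmp23 was above Adamts5 by only 0.031 on the log2 scale in replicate 2 and 0.035 in replicate 1. In the kallisto-layout table, replicate 1 had Timp2 (49.95 TPM) above Timp3 (43.2) and Adamts15 (2.80) above Adamtsl3 (2.49). The order of the other 16 pairs is not settled by these libraries.

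Inhibitors and proteases were compared by their summed TPM, since TPM is per length. The TIMP genes summed to 130.3 TPM in replicate 2 and 81.9 in replicate 1 (106 ± 34.2, SD, n = 2). The MMP genes summed to 60.3 TPM in replicate 2 and 60.6 in replicate 1 (60.4 ± 0.163, SD, n = 2). The ADAMTS genes summed to 35.6 TPM in replicate 2 and 34.4 in replicate 1 (35.0 ± 0.905, SD, n = 2). The protease sums thus stayed within 1.04-fold between the libraries while the TIMP sum was 1.59-fold higher in replicate 2.

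TIMP over MMP and ADAMTS together was 1.36 in replicate 2 and 0.863 in replicate 1 (1.11 ± 0.350, SD, n = 2), so the inhibitors exceeded the proteases in replicate 2 and not in replicate 1. In the kallisto-layout table the same ratio was 1.59 in replicate 2 and 1.02 in replicate 1. TIMP over MMP alone was 2.16 in replicate 2 and 1.35 in replicate 1, and TIMP over ADAMTS was 3.66 and 2.38 in the same order, so 4 inhibitor genes were above the 23 MMP genes in both libraries. These are RNA ratios and do not measure active enzyme, nor do they weigh which TIMP acts on which enzyme.

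**Figure D3:**
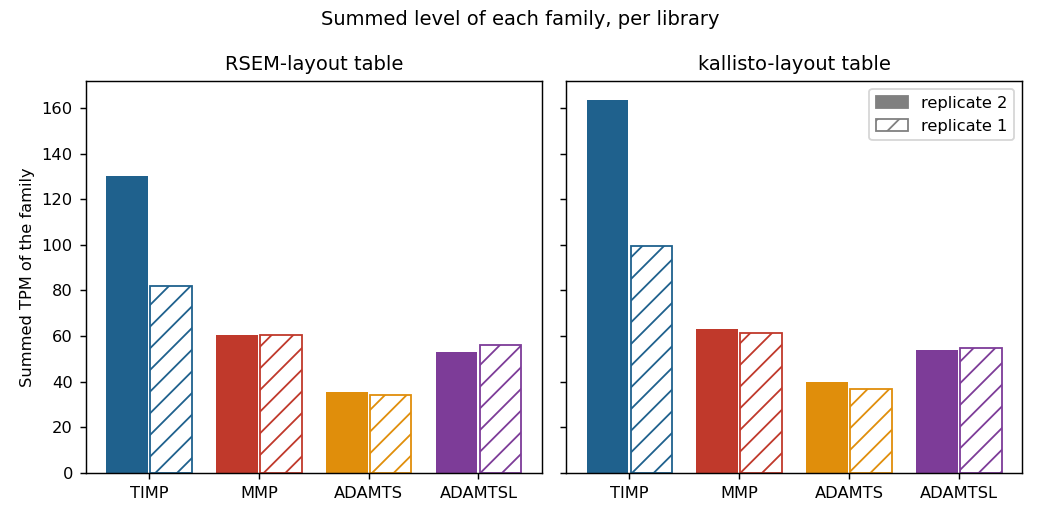
Summed TPM of the TIMP, MMP, ADAMTS and ADAMTSL genes, with filled bars for replicate 2 and hatched bars for replicate 1, in the RSEM-layout table (left) and the kallisto-layout table (right). The TIMP bar is higher in replicate 2 (130.3 TPM) than in replicate 1 (81.9 TPM) in the RSEM-layout table, and the bars of the other families differ little.

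Within the TIMP sum, Timp3 held 56.1% in replicate 2 and 50.7% in replicate 1, Timp2 held 30.4% and 40.2%, Timp4 held 12.5% and 7.24%, and Timp1 held 0.967% and 1.88%, in the same order of libraries. In the kallisto-layout table, Timp2 was below Timp3 in replicate 2, with 40.2% against 49.3%, and above it in replicate 1, with 50.1% against 43.4%. Which of the pair is the highest TIMP gene in replicate 1 therefore depends on the table.

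Between the libraries, 1 of the 24 members with a mean of 1 TPM or more was 2-fold or more apart on the scale of log2(TPM + 0.1), against a background of 4.22% of 12510 genes. It was 1 gene higher in replicate 2, against 3.3% of genes, and 0 lower, against 0.919%. That gene was Timp4, with a log2 ratio of 1.44 (replicate 2 over replicate 1). Its count ratio, scaled to the library totals, was 2.80 with an exact 95% binomial interval of 2.55 to 3.09, which covers counting error only. Timp3 followed with a log2 ratio of 0.81 and a count ratio of 1.79 (1.73 to 1.86). Timp2 had a log2 ratio of 0.27 and a count ratio of 1.30 (1.23 to 1.37), and Timp1 a log2 ratio of -0.27 and a count ratio of 0.881 (0.514 to 1.503), an interval that holds 1. The 3 TIMP genes higher in replicate 2 moved beside the adipocyte, airway, lymphocyte and mesothelium markers given above, of which all 5 in each list were higher in replicate 2, and their part in the TIMP difference was not tested.

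On the log2 scale of TPM, Timp4 had the largest ratio in either direction, and Adamts3 the next. By count ratio Adamtsl2 came after Timp4. Of the 24 genes, 13 were higher and 11 lower in replicate 2, against 54% of all genes higher, and the median log2 ratio was 0.077 against 0.023 over all genes. Within 0.5 of 0 on the log2 scale were 18 of the 24. The lowest ratio was that of Adamts3 at -0.90, with a count ratio of 0.738 (0.582 to 0.933). Its noncoding transcript Adamts3-203, of 563 nt, had 0.10 TPM in replicate 2 and 0.79 in replicate 1 (1.32 and 10.29 counts). The coding Adamts3-201 had 1.01 and 1.18 TPM and the coding Adamts3-204 0.27 and 0.68 TPM, in the same order. Adamtsl2 had a TPM ratio of only 0.35 on the log2 scale but a count ratio of 2.31 (1.91 to 2.81), and its kallisto-layout TPM was 3.65 in replicate 2 and 3.92 in replicate 1.

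**Figure D4:**
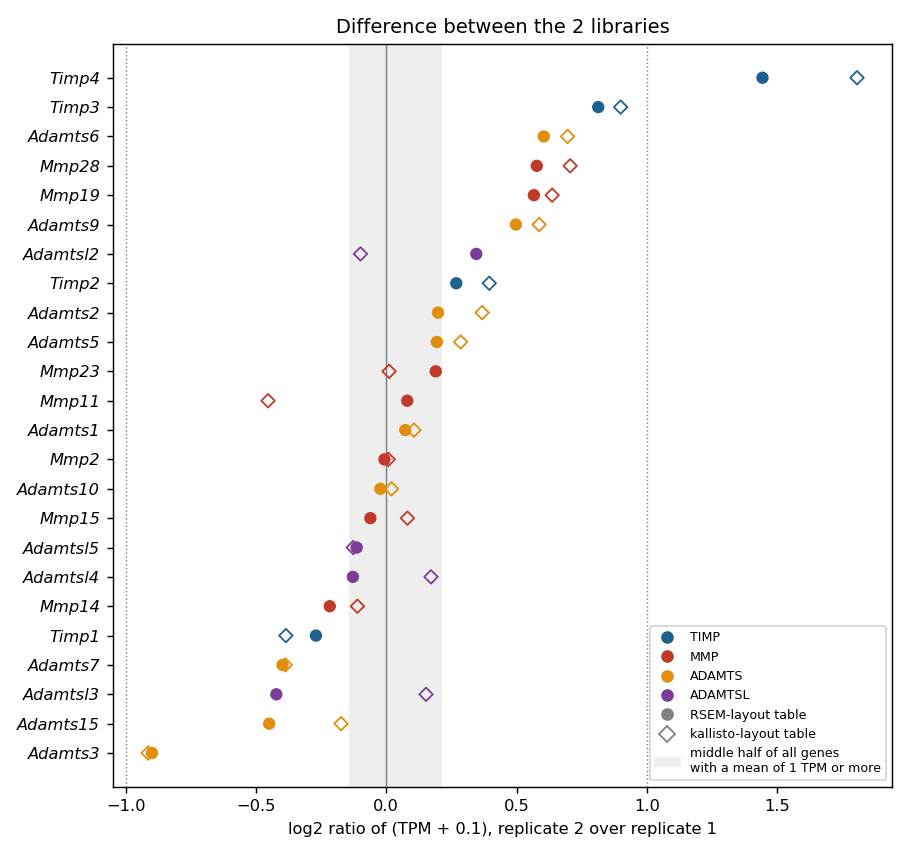
Log2 ratio of TPM + 0.1, replicate 2 over replicate 1, for the 24 genes; filled circles are the RSEM-layout table, open diamonds the kallisto-layout table, colours mark families, the grey band spans the quartiles of all genes (-0.14 to 0.21) and dotted lines mark 2-fold. Timp4 is the only gene past 2-fold in either table, and Adamtsl2, Adamtsl4, Adamtsl3, Mmp11, Mmp15, Mmp2 and Adamts10 lie on different sides of 0 in the tables.

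The share of protein-coding transcripts varied within the MMP, ADAMTS and ADAMTSL families. Of the 24 genes, 10 had over 90% of their TPM from protein-coding transcripts in both libraries, against 54.9% of 11340 genes with a mean of 1 TPM or more. Their median coding share was 94.6% in replicate 2 and 85.8% in replicate 1, against 94.6% and 95% over those genes. The 10 genes over 90% were the TIMP genes, all above 98%, and Mmp15, Mmp2, Mmp19, Adamts1, Adamts5 and Adamts15. Timp3-201 made up 95.4% of Timp3 in replicate 2 and 96.1% in replicate 1. Timp4-201 made up 58.1% of Timp4 in replicate 2 and 58.4% in replicate 1, the rest being the coding Timp4-202. Timp4-201 made up 72.8% in the kallisto-layout table in replicate 2 and 91.0% in replicate 1, so whether the transcript mix differed between the libraries depends on the table. Timp2 was divided between the coding Timp2-201 and the short coding Timp2-202, which held 68.7% and 31.3% in replicate 2 and 64.2% and 35.8% in replicate 1. In the kallisto-layout table Timp2-202 led, with 54.1% in replicate 2 and 54.5% in replicate 1. The split of Timp1 between Timp1-202 (100% in replicate 2 and 24.3% in replicate 1) and Timp1-201 rested on about 30 counts.

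Under 50% from protein-coding transcripts in both libraries were Adamtsl5, Adamts10 and Adamts6. Adamtsl5 had a coding share of 46.3% in replicate 2 and 46.4% in replicate 1, and its leading transcript was the retained-intron Adamtsl5-203 (3520 nt) with 30.9% and 31.5% in the same order. By the kallisto-layout table, coding transcripts held only 23.2% of Adamtsl5 in replicate 2 and 26.1% in replicate 1. Retained-intron transcripts together held 36.7% of Adamtsl5 in replicate 2 and 39.1% in replicate 1. The coding share of Adamts10 was 30.4% in replicate 2 and 34.5% in replicate 1, and that of Adamts6 13.4% and 21.7%. Total RNA with ribosomal RNA reduced also holds unspliced RNA, and its share in these transcripts was not tested.

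For Adamtsl2 the leading transcript differed between the libraries. Its coding transcript Adamtsl2-201 had 3.07 TPM in replicate 2 and 1.13 in replicate 1. The retained-intron Adamtsl2-202, of 442 nt, had 0 TPM in replicate 2 and 1.38 in replicate 1. The coding share of the gene was 77.9% in replicate 2 and 36.7% in replicate 1. The coding transcript and the gene's counts were thus over 2-fold higher in replicate 2, while the gene's TPM, which adds the short transcript at its full TPM, was less than 2-fold apart.

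**Figure D5:**
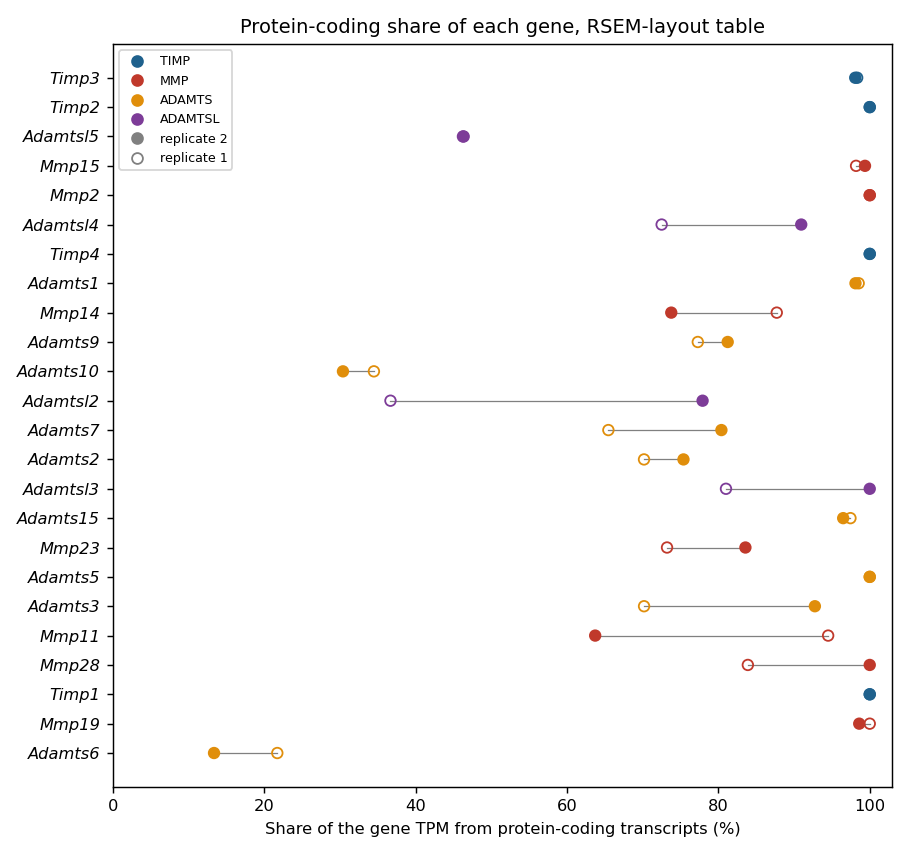
Share of each gene's TPM that comes from protein-coding transcripts (%), RSEM-layout transcript table, for the 24 genes in order of mean TPM; filled points are replicate 2, open points replicate 1, colours mark families. The TIMP genes lie at 98% or more, Adamtsl5, Adamts10 and Adamts6 below 50% in both libraries, and Adamtsl2 at 77.9% in replicate 2 and 36.7% in replicate 1.

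Counting only protein-coding transcripts, the TIMP sum was 128.8 TPM in replicate 2 and 81.2 in replicate 1, the MMP sum 57.1 and 58.2 TPM, the ADAMTS sum 28.5 and 26.9 TPM and the ADAMTSL sum 34.3 and 31.5 TPM, in the same order of libraries. The ADAMTSL sum lost most, and it was then higher in replicate 2, whereas with all transcripts it was lower.

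Other genes of the pathway were read from lists of related inhibitors, activators and substrates. For every list below, the background at 1 TPM in both libraries is 50.2% of genes with a protein-coding transcript. Of all genes with a mean of 1 TPM or more, 4.22% were 2-fold or more apart and 54% were higher in replicate 2. The lists are short, and counts near these shares say nothing particular about them. Of 14 genes listed as other protease inhibitors, not all of them inhibitors, 9 had 1 TPM or more in both libraries and none was 2-fold or more apart. They were led by Cst3 (cystatin C, an inhibitor of cathepsins) with 369 TPM in replicate 2 and 418 in replicate 1, Serpinh1 (a collagen chaperone of the serpin family) with 77.8 and 85.8 TPM, Serping1 (the complement C1 inhibitor) with 27.8 and 25.9 TPM and Tfpi (an inhibitor of coagulation) with 27.2 and 22.6 TPM, in the same order of libraries. Reck, a membrane-anchored MMP inhibitor, had 1.97 TPM in replicate 2 and 1.80 in replicate 1.

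Of 10 activators, 7 reached 1 TPM in both libraries. Bsg (basigin, an inducer of MMPs) had 575 TPM in replicate 2 and 588 in replicate 1, Furin (the protease that removes the propeptide of membrane-type MMPs and ADAMTS enzymes) 44.2 and 48.1 TPM, Pcsk6 14.4 and 13.3 TPM and Plat (tissue plasminogen activator) 7.10 and 7.24 TPM, in the same order. Plg, plasminogen, was at 0 counts in both libraries. Among 11 genes of the ADAM family, not all of them active proteases, 6 reached 1 TPM in both libraries. They were led by Adam19 with 18.7 TPM in replicate 2 and 22.6 in replicate 1 and Adam15 with 18.3 and 19.9 TPM. Adam17, a target of TIMP3, had 19.5 TPM in replicate 2 and 17.5 in replicate 1, and Adam9 16.1 and 14.7 TPM.

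All 12 collagen and basement membrane substrates reached 1 TPM in both libraries. Of them 10 were higher in replicate 2 by less than 2-fold, where 54% of all genes were higher. Col4a1 had 84.5 TPM in replicate 2 and 71.9 in replicate 1, Col4a2 49.4 and 47.4 TPM, Col3a1 37.9 and 27.5 TPM and Lamc1 32.3 and 32.8 TPM, in the same order. The median log2 ratio of the 12 was 0.25, against 0.023 over all genes. Of the 8 proteoglycan and plasma substrates of ADAMTS enzymes, 5 reached 1 TPM in both libraries. Dcn, decorin, led with 141.5 TPM in replicate 2 and 135.3 in replicate 1, before Bgn, biglycan, with 72.5 and 62.5 TPM, Vwf, and Vcan, versican, with 2.37 and 2.80 TPM. Of 10 microfibril partners of the ADAMTSL proteins, 7 reached 1 TPM in both libraries, with Ltbp4 at 80.1 TPM in replicate 2 and 67.1 in replicate 1, Ltbp1 at 15.0 and 13.8 TPM, Ltbp3 at 11.8 and 10.5 TPM and Fbn1, fibrillin 1, at 11.1 and 9.73 TPM.

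Of 11 other genes of collagen proteolysis, 7 reached 1 TPM in both libraries, led by the cathepsins Ctsb with 178 TPM in replicate 2 and 165 in replicate 1 and Ctsl with 98.7 and 113 TPM, and by the procollagen protease enhancers Pcolce with 18.5 and 14.8 TPM and Pcolce2 with 10.8 and 10.9 TPM. The 1 gene of these 11 that was 2-fold or more apart was Ctss, cathepsin S of macrophages and other antigen-presenting cells, with 9.44 TPM in replicate 2 and 3.74 in replicate 1, named after its values were seen. All 5 clearance and docking genes reached 1 TPM in both libraries and were higher in replicate 2 by less than 2-fold, led by Lrp1, the endocytic receptor that clears TIMPs and MMPs, with 25.4 and 24.2 TPM, Itgav with 16.0 and 13.0 TPM, Sdc4 with 13.3 and 7.74 TPM and Gpc3 with 6.77 and 5.01 TPM, in the same order of libraries.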

How the data were processed

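Total RNA-seq tables of 2 libraries of 1 group were used. Per the deposited readme they refer to mm10 and GENCODE M21; programs, versions and strand setting were not given in these sources, and the tables are named by their column layouts (RSEM, kallisto). The expected counts deposited by the authors are reads per gene or transcript with multi-mapping reads split, and the estimated counts of the kallisto-layout table are alike. TPM, as deposited, is relative abundance per length over all rows. Isoform percent, as deposited, gives each transcript's part of its gene. The signal columns used, the credibility bounds of TPM, were deposited by the authors and belong to the posterior mean.

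Members with a mean of 1 TPM or more were named, as were the 4 highest genes of each related list and members over 1.5 times apart between tables. Members and lists were chosen with earlier results of these data known. Ratios use log2(TPM + 0.1), which understates changes of low genes; kallisto-layout transcripts were summed per gene. The libraries differed by more than sampling noise (chi-square of 31.5 per degree of freedom over 14992 genes) and were counted as 2 samples; this does not show separate animals. Count ratios carry exact binomial 95% intervals (scipy 1.17.1), and a count of 0 allows up to 3 counts; both cover counting error only. The fold call was tested on simulated data. edgeR 4.0.16 gave TMM factors for 1 alternative. Alternatives were the other table, posterior means, other thresholds, coding transcripts only, pseudocount 1, no filter and leaving out a library. RefSeq promoter windows (GRCm38.p6) were matched by symbol for 36 of 51 members; 1 with a start over 1000 bases away was left out, a limit set after seeing the data.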

Additional observations from a re-analysis of the deposited data

How the results depend on the processing

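Of 41 alternative values, 33 stayed within the limits set for a change, 7 moved and 1 turned its sign. For the family sums and the TIMP to protease ratio the limit was 1 SD of the 2 libraries. With n = 2 the value of 1 library alone always falls within it. Leaving out a library therefore could not move these values, and their staying shows no stability. The MMP sum (60.4 TPM) was 62.3 in the kallisto-layout table, 62.8 with posterior means and 57.7 with coding transcripts only. The ADAMTS sum (35.0 TPM) was 38.4, 37.5 and 27.7 under these settings, and the ADAMTSL sum (54.6 TPM) was 32.9 with coding transcripts only. The TIMP sum (106 TPM) was 132 in the kallisto-layout table, within its wide SD of 34.2. The median log2 ratio of the 24 genes (0.077) was -0.0039 after TMM scaling, which multiplies all genes of a library alike. Timp4 stayed 2-fold or more apart under the 5 alternatives run for that count, with log2 ratios from 1.32 (pseudocount 1) to 1.81 (kallisto-layout table). Members at the threshold in both libraries numbered 18 at 2 TPM and 27 at 0.5 TPM, 24 in the kallisto-layout table, and 26 or 22 when replicate 1 or replicate 2 was left out. Without replicate 1 the TIMP to protease ratio was 1.36 and without replicate 2 it was 0.863. No paired analysis was possible because the study has 1 group. Depth limits the 10 genes with counts and a mean under 0.2 TPM, and Mmp3 with 12 counts in each library, for which the libraries cannot be ranked. With n = 2 of 1 donor entry, SDs are imprecise.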
